A study of Mus musculus with 6 samples.

Results

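CTCF peaks were examined at the loci of 10 transcription factors that direct T cell development, namely Bcl11b, Satb1, Tcf7, Gata3, Runx1, Runx3, Ets1, Tox, Lef1 and Bach2. A peak was a member when it overlapped a fixed window of the mouse genome around one of these genes, and for Bcl11b the window also took in the gene desert beside it. The windows spanned 4.8 Mb in all and held 669 of the 172581 peaks in the 6 lists, and no member was dropped by a filter. The peaks came from CUT&RUN, in which an antibody against CTCF brings a nuclease to the bound protein and the DNA released around it is sequenced. The cells were regulatory T cells of the mouse thymus, 3 libraries labelled WT and 3 labelled Cgas Knockout (Cgas_KO below), Cgas being the gene of the DNA sensor cGAS. Strain, age, sex and the cells in which Cgas was deleted are not given in the labels. The lists hold no expression values, so the cell type and the knockout could not be checked against marker genes. Whether each replicate is a separate animal is not in the labels, and the p-values below therefore measure only the spread between these libraries, which may be technical.

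CTCF is a zinc-finger protein that binds a long DNA motif and halts the cohesin complex as it extrudes loops of chromatin, so that its sites often lie at the anchors of loops and at the borders of domains. Genes that set T cell identity commonly depend on distant enhancers, and CTCF sites at such loci are studied for their part in bringing enhancer and promoter together. At Bcl11b the distal enhancer lies far out in the gene desert, where a noncoding RNA called ThymoD is known to act near CTCF sites.

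Positions follow mm39, to which the sequence names in the lists belong, and no gene annotation of that build was used. Regions are therefore given by position and by the window they lie in, and whether a region is a promoter, an intron or an intergenic site was not analysed here. A RefSeq gene table of another build, GRCm38.p6, served only for names and neighbours. In it Bcl11b stands beside Setd3, Runx3 between Syf2 and Clic4, Ets1 between Fli1 and Kirrel3, Tcf7 beside Vdac1 and Lef1 beside Hadh. Sequence under the peaks was likewise not used. RefSeq promoter sequences of GRCm38.p6, which have no position in mm39 here, were searched for AGGGGGC, the most conserved stretch of the CTCF motif, on either strand. There were 18 promoters for 8 of the 10 genes. Of these, 3 held the stretch, all of them among the 5 of Satb1, against 10.6% of all 32851 promoters in the table. Only 1 member promoter held the longer form AGGGGGCGC, which 1.25% of all promoters held. Its 250 bases before the start site, on the strand of the gene, are shown to let the motif be seen at base level, with the 2 matches to the reverse complement of AGGGGGC in capitals. Where this promoter lies among the peaks was not analysed here, and a match says nothing on binding.

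Satb1 promoter: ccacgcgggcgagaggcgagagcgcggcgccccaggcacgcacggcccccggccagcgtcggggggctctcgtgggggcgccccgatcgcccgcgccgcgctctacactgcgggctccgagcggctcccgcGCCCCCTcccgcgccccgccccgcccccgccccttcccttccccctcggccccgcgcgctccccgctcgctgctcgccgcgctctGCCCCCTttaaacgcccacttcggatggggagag

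Peaks were dense at these loci in every library. The WT libraries had 107, 106 and 99 peaks in the windows and the Cgas_KO libraries 108, 122 and 127. That came to 20.6 to 26.5 peaks per Mb of window, while the whole lists held 9.97 to 11.7 peaks per Mb. Peaks covered 7.34% to 10.4% of the windows and 3.24% to 3.96% of the genome, counted up to the last peak on each chromosome. The peak counts of the genotypes did not overlap, but the whole lists also differed in length, and as a share of the list the members were 0.365% to 0.391% in WT and 0.367% to 0.435% in Cgas_KO. These overlapped. The mean difference was 15 peaks per library, and 6 with every list cut to the length of the shortest. No test was made of this sum over chosen windows. Member peaks were 1146 to 15052 bp wide with a median of 3379 bp, and 15 of them crossed the limit of a window. Depth per library is unknown, since the lists give signal inside peaks only. Cgas_KO replicate 3 stood apart in the whole series, with more and narrower peaks than any other library (31707 peaks with a median width of 2569 bp, against 27128 to 29412 peaks of 3219 to 3607 bp).

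The height of a peak, its maximum signal, was a whole multiple of a step that differed between libraries, within 0.01 step for 100% of peaks under 200 steps. The step was 0.190, 0.212 and 0.195 in WT and 0.117, 0.117 and 0.120 in Cgas_KO, so the unit itself split by genotype. Heights are given in these steps. The sources used here do not say what 1 step is worth in reads. Heights in steps are therefore given as values, and tests were made on ranks within a library. Member peaks were 6 to 133 steps high with a median of 12. In bulk cells, fewer bound cells and weaker binding in each cell cannot be told apart.

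**Figure D1:**
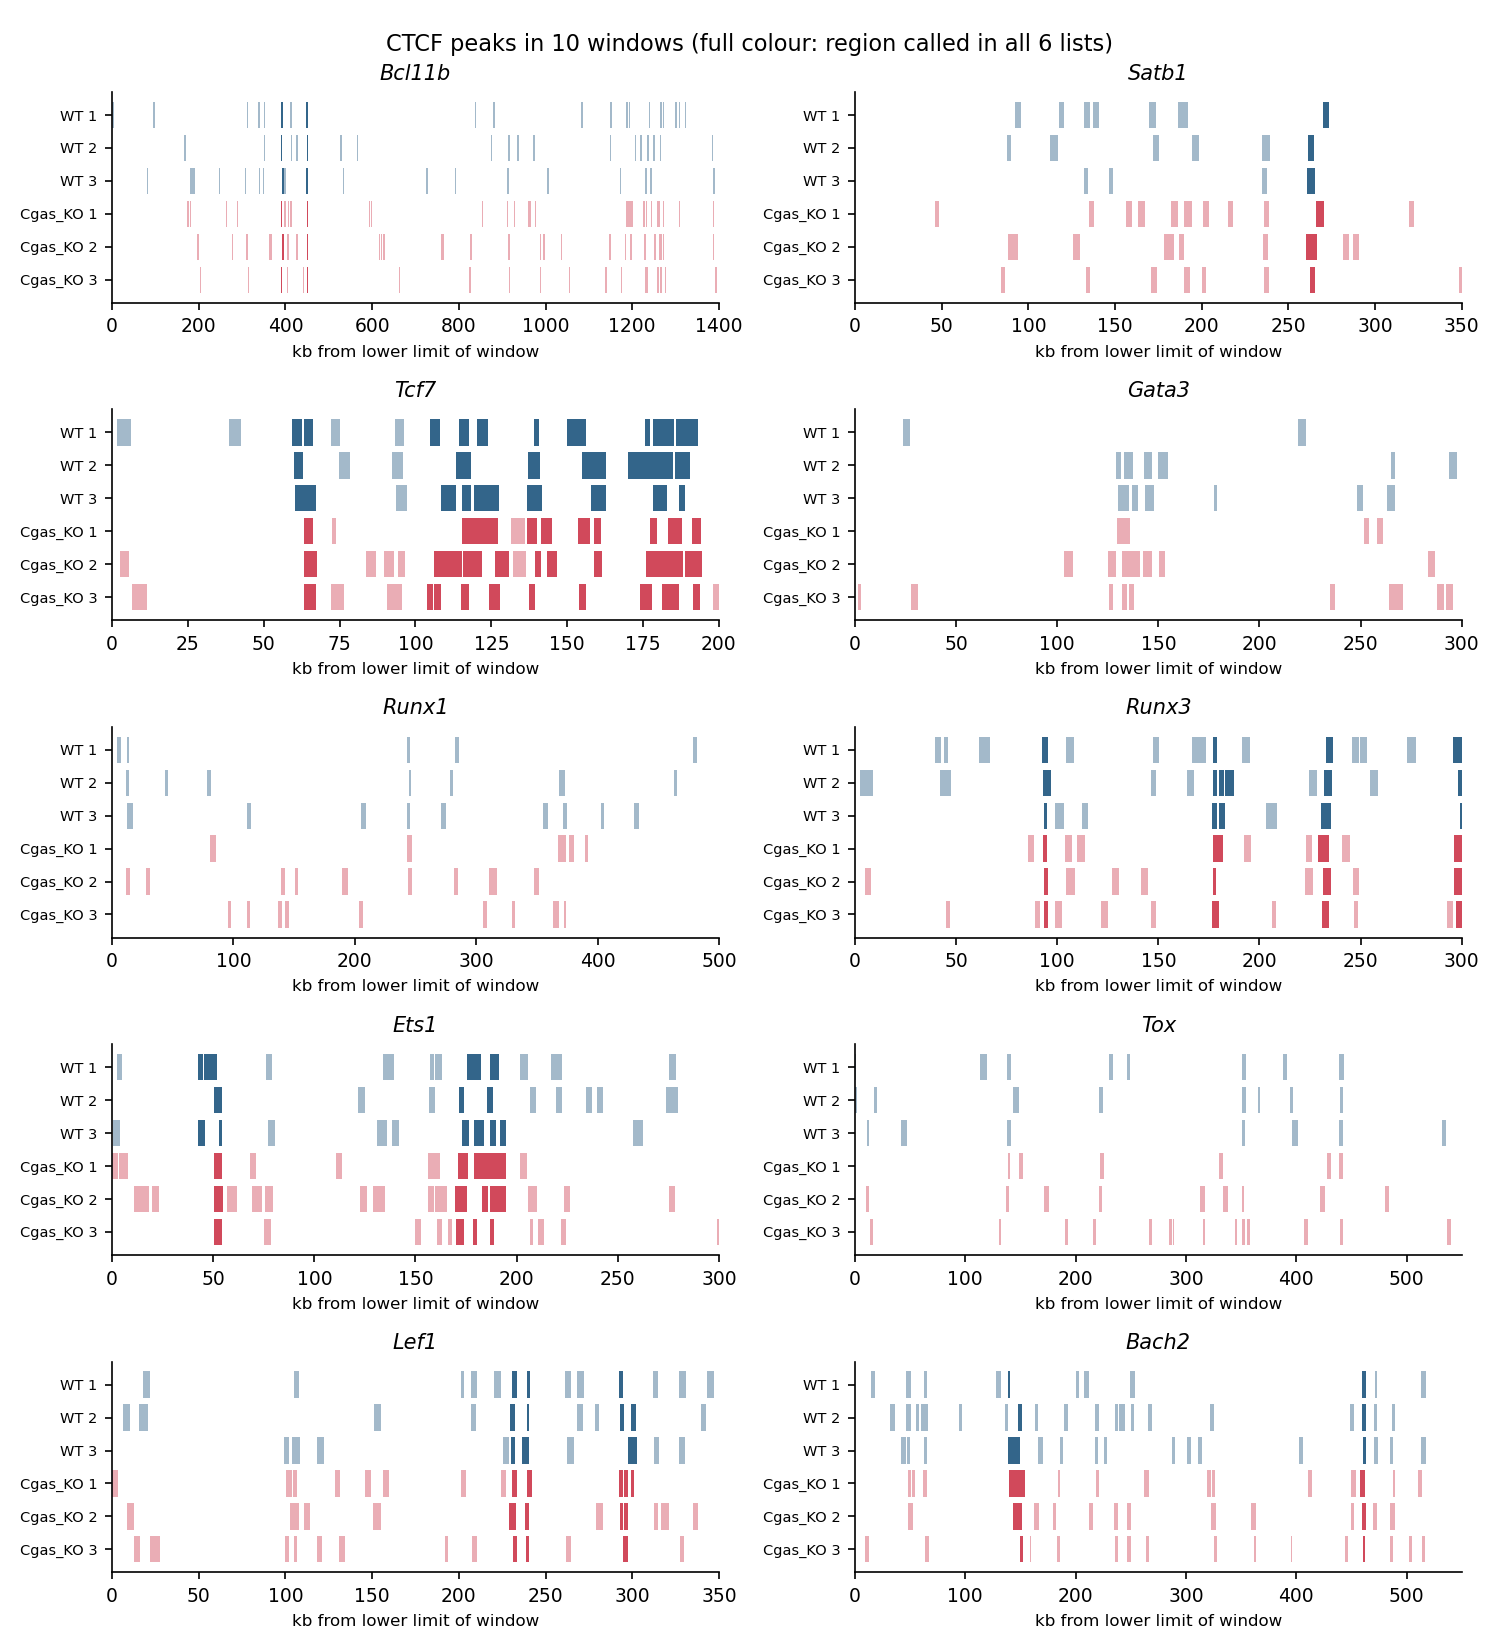
Peaks of the 6 lists (rows, blue for WT and red for Cgas_KO) in the 10 windows, against distance in kb from the lower limit of each window. Full colour marks peaks in regions called in all 6 lists, which were found in every window but Gata3, Runx1 and Tox. Such a region can chain peaks at different positions. The positions of highest signal within 1 region spread over up to 16574 bp at Tcf7 and 18053 bp at Ets1.

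How often a site recurred was asked by merging the peaks of all lists that overlapped by at least 1 bp into regions. The windows held 303 regions. A peak in each of the 6 lists was found for 19 (6.27%), termed shared, against 5.16% of the 94951 regions of the genome. At the other end 177 (58.4%) were called in 1 list, against 69.9% of the genome. Recurrent regions, called in 4 or more lists, numbered 47 (15.5% against 11.6%). Merging chains overlapping peaks, and with a requirement that every list fill at least 50% of a region, 0 regions in the windows were shared (no genome share is given for that rule). A region can thus join peaks at different positions, and the heights given for it need not be of the same site. The loci differed widely. Tcf7 had 5 shared regions, Runx3 4, Lef1 3, Bcl11b, Ets1 and Bach2 2 each, and Satb1 1. Gata3, Runx1 and Tox had 0. In the Tcf7 window 74.3% of the 70 peaks lay in shared regions and 4.29% in regions of 1 list. In the Tox window 0 of 52 peaks lay in shared regions and 51.9% in regions of 1 list.

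Coverage by peaks, averaged over the 6 libraries, was 25.1% of the window at Tcf7, 15.4% at Ets1, 12.3% at Runx3, 10.7% at Lef1, 9.74% at Bach2, 7.41% at Satb1, 6.72% at Gata3, 5.49% at Bcl11b, 5.06% at Runx1 and 5.04% at Tox. Neighbours in this order overlapped in every case, in that the lowest library of a window was never above the highest library of the next. When the genome was cut into tiles of the same lengths as the windows, the median tile was covered by 2.50% to 3.10%.

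**Figure D2:**
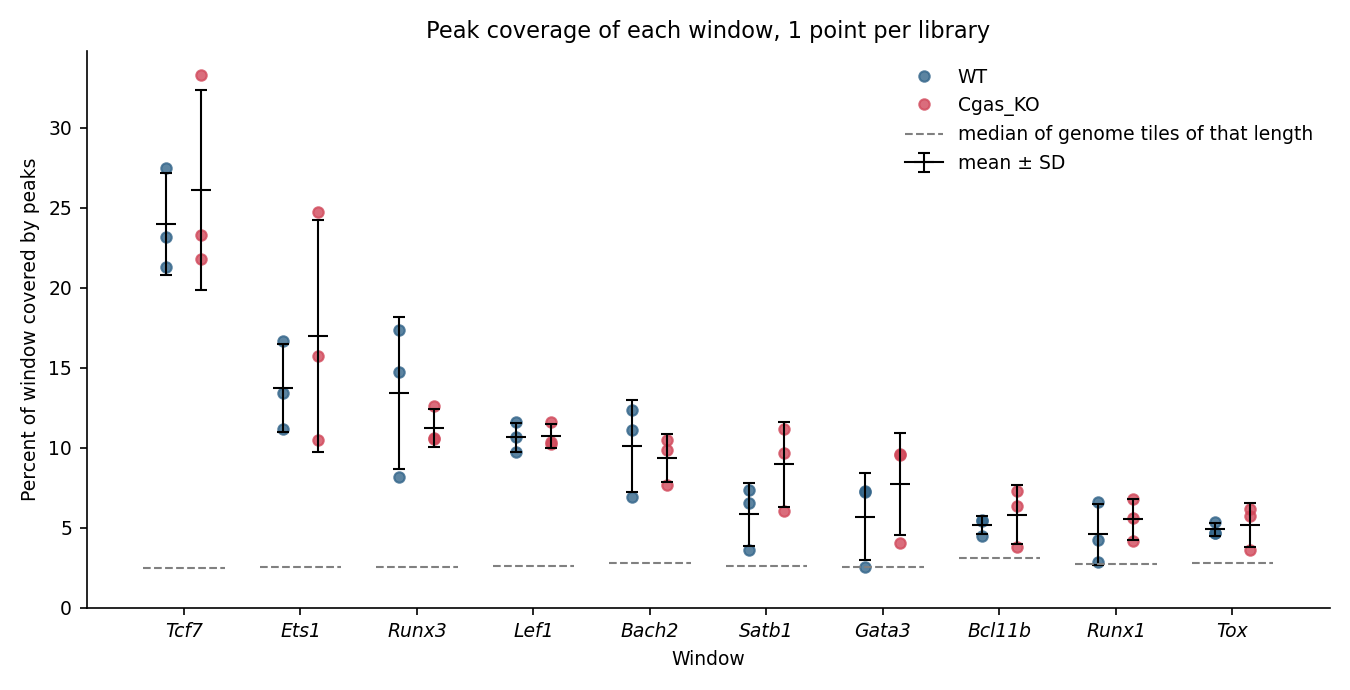
Percent of each window covered by peaks, 1 point per library, with mean ± SD (n = 3) per genotype and, as dashed lines, the median of genome tiles of the same length. The points of the genotypes overlap in all 10 windows, and Tcf7 lies highest at 21.3% to 33.3%.

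The comparison of genotypes asked whether these loci were covered differently without cGAS. In none of the 10 windows were the 3 libraries of one genotype all above the 3 of the other. Among genome tiles with a peak, such separation was seen in 9.73% at 200 kb (the length of the Tcf7 window), 10.5% at 300 kb (Gata3, Runx3, Ets1), 10.5% at 350 kb (Satb1, Lef1), 11% at 500 kb (Runx1), 11.2% at 550 kb (Tox, Bach2) and 11.9% at 1400 kb (Bcl11b). Each window was tested as a single value with a two-sided exact permutation test, 10 in all and unadjusted. With 3 libraries against 3 no p can fall below 0.1.

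Tcf7 encodes TCF-1, an HMG-box factor switched on by Notch at the start of the T lineage, and Lef1 encodes its close relative. The Tcf7 window, chr11:52050000-52250000, was covered by 27.5%, 23.2% and 21.3% in WT and by 21.8%, 33.3% and 23.3% in Cgas_KO. Cgas_KO replicate 2 was above every WT library and the other Cgas_KO values lay within the WT range (exact permutation p = 0.6). The Lef1 window, chr3:130800000-131150000, had the most even coverage, 10.7% ± 0.919 in WT and 10.7% ± 0.750 in Cgas_KO (SD over 3 libraries). Its exact permutation p was 1.

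Of the 5 shared regions of Tcf7, 4 lay next to each other between 52153938 and 52244566. The tallest, chr11:52220014-52244566, was 24553 bp wide and reached 44, 38 and 42 steps in WT against 32, 30 and 15 in Cgas_KO. All 3 WT values were above the Cgas_KO values in steps. That was so in 4 of the 19 shared regions of the windows and in 34.4% of the 4896 of the genome. The reverse was seen in 0 of the 19 and in 30 of the 4896. Against the other shared regions of its own library it stood at percentile 71.5 ± 1.33 in WT and 58.0 ± 22.0 in Cgas_KO (SD, n = 3), which overlapped. The next, chr11:52109193-52117626, was 35, 20 and 35 steps high in WT and 20, 19 and 20 in Cgas_KO. The other 3 were 10080 to 26755 bp wide and 10 to 22 steps high.

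Lef1 held the tallest peak outside the Runx3 window in every library. Region chr3:131036189-131042245 was 63, 56 and 71 steps high in WT and 33, 38 and 35 in Cgas_KO, and the groups did not overlap in steps. Ranked among shared regions it stood at percentile 86.1 ± 1.71 in the WT libraries and 81.2 ± 6.84 in the Cgas_KO libraries (SD, n = 3), and there they overlapped. The limma p on ranks was 0.410, with a Benjamini-Hochberg adjusted p of 0.804. With height divided by the library's median over shared regions and put on a log2 scale, Cgas_KO minus WT was -0.44 (SE 0.22, limma adjusted p = 0.301). Just below it, chr3:131028902-131033682 was 33, 18 and 19 steps high in WT and 14, 13 and 19 in Cgas_KO. Higher up, chr3:131092564-131102710 had heights of 33, 17 and 10 steps in WT and of 26, 26 and 14 in Cgas_KO, with groups that overlapped (limma adjusted p = 0.658). The positions of highest signal there lay up to 6060 bp apart, so these heights need not be of the same site. Nearer the lower limit chr3:130899015-130908257 was called in 5 lists at 11 to 16 steps, next to a stretch of 71.3 kb without a peak in any list.

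The Runx genes encode the DNA-binding subunits of core-binding factor. Runx3 silences Cd4 in cytotoxic T cells, and Runx1 acts in blood stem cells and throughout T cell development. Their windows were unlike each other. Coverage at Runx3, chr4:134700000-135000000, was 17.4%, 14.7% and 8.15% in WT and 12.6%, 10.6% and 10.5% in Cgas_KO, with overlap (exact permutation p = 0.6). Coverage at Runx1, chr16:92250000-92750000, was 2.88%, 4.25% and 6.64% in WT and 4.21%, 6.80% and 5.60% in Cgas_KO, again with overlap (exact permutation p = 0.5).

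Runx3 held the tallest peak of every library in the 10 windows. Region chr4:134792255-134796678 was 133, 119 and 91 steps high in WT and 99, 90 and 54 in Cgas_KO, and the groups overlapped. Within each list this peak stood at percentile 98.5 to 99.5 of height. Among shared regions it stood at 94.6 ± 2.11 in WT and 96.1 ± 1.11 in Cgas_KO (SD, n = 3; limma on ranks, adjusted p = 0.821). The second site, chr4:134928737-134936422, was 63, 46 and 45 steps in WT against 37, 42 and 29 in Cgas_KO. These did not overlap in steps, while the percentiles, 79.3 ± 5.37 and 82.6 ± 2.31 (SD, n = 3), did. Another, chr4:134876567-134887553, was 26, 35 and 44 steps in WT against 42, 29 and 19 in Cgas_KO. The last, chr4:134995545-135002677, crosses the upper limit of the window and was 12 to 35 steps high. Its median position of highest signal, 135000211, lay just past that limit.

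At Runx1 no region was called in all lists. The best was chr16:92492659-92497021, called in all but Cgas_KO replicate 3, at 21, 19 and 27 steps in WT against 19 and 21 in Cgas_KO. Of the other recurrent regions, chr16:92261415-92267255 was in 3 WT lists and 1 Cgas_KO list, and chr16:92613139-92625203 in 2 and 2. Regions of 1 list made up 19 of the 27. These Runx1 regions were picked after their values were seen. So were the recurrent regions not called in all lists named for Lef1 above and for Bcl11b, Gata3, Satb1, Tox and Bach2 below.

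Bcl11b encodes the zinc-finger repressor that locks in T cell commitment. Its window with the desert, chr12:106700000-108100000, was the longest. It was covered by 5.52%, 4.51% and 5.44% in WT and 6.36%, 7.33% and 3.78% in Cgas_KO (exact permutation p = 0.5). The genotypes overlapped, and every library was above the 3.10% of the median genome tile of that length. Of its 72 regions 47 were in 1 list, and 6 were recurrent. The 2 shared ones lay close together in the lower part of the window. Region chr12:107089073-107096466 was 11, 25 and 15 steps high in WT and 14, 12 and 16 in Cgas_KO, and chr12:107147012-107152916 was 13, 12 and 9 steps in WT against 12, 13 and 9 in Cgas_KO. They were low for shared regions, at mean percentiles of 18.0 and 2.78 in WT and 16.7 and 3.95 in Cgas_KO (limma adjusted p on ranks = 0.989 and 0.791).

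The same stretch held the regions of the 10 windows that split by genotype. Over all windows 1 region was called in 3 WT and 0 Cgas_KO lists (0.377% of the regions of the genome were) and 1 in 3 Cgas_KO and 0 WT lists (0.330% of the genome). Both were in the Bcl11b window, on either side of the first shared region. The WT one, chr12:107047627-107053315, was 28, 35 and 16 steps high, at percentiles 85.2, 93.1 and 61.9 of its lists. The peak of WT replicate 3 ended at 107051360, just past the starts of those of replicates 1 and 2, at 107051183 and 107051260. The positions of highest signal lay up to 2751 bp apart, so the WT lists need not hold the same site. The Cgas_KO one, chr12:107102744-107108307, was 13, 12 and 10 steps high, at percentiles 44.8, 36.2 and 41.0. Its positions of highest signal lay up to 1828 bp apart. The WT region was thus above the median height of its lists and the Cgas_KO region below it. With 1 of 303 regions in each direction, the windows were close to the background shares. The WT region was lost when regions were built from the intervals of maximum signal (0 in the windows), and where 2 of 3 lists sufficed the counts were 6 for WT and 13 for Cgas_KO, against 3.02% and 3.26% of the regions of the genome.

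Toward the upper end of the Bcl11b window, chr12:107924510-107937997 and chr12:107957991-107969136 were each called in 2 WT and 3 Cgas_KO lists. The second reached 21 and 20 steps in WT against 16, 27 and 18 in Cgas_KO. Another region in 2 WT and 3 Cgas_KO lists, chr12:107611683-107619057, was 8 to 15 steps high. The longest stretch of the window without a peak in any list, 76.6 kb, ran from 106703422 to 106780043.

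Gata3 encodes a zinc-finger factor needed for early T cells and for CD4 lineage choice. Its window, chr2:9750000-10050000, was covered by 2.57%, 7.28% and 7.27% in WT and 4.03%, 9.60% and 9.54% in Cgas_KO, and the groups overlapped (exact permutation p = 0.5). Only 1 of its 18 regions was recurrent. That region, chr2:9879050-9890927, was not called in WT replicate 1, and was 15 and 11 steps high in the other WT libraries and 22, 26 and 10 in Cgas_KO. In the 5 lists that had it, the positions of highest signal lay within 486 bp. In WT replicate 3, however, peaks at 134.127 and 138.533 kb from the lower limit of the window tied at 11 steps. The lower of these was used, and the other would give a wider spread. No peak of any list lay in the 72.3 kb below, from 9781009 to 9853326.

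Ets1 encodes an ETS-family activator that supports T cell survival and regulatory T cells. Its window, chr9:32450000-32750000, was covered by 16.7%, 11.2% and 13.4% in WT and 15.7%, 24.8% and 10.5% in Cgas_KO (exact permutation p = 0.7). Cgas_KO replicate 2 was highest and Cgas_KO replicate 3 lowest, and without replicate 2 the difference, Cgas_KO minus WT, was -0.661 percentage points instead of 3.23. Shared region chr9:32492256-32504658 was 26, 30 and 25 steps in WT against 20, 24 and 14 in Cgas_KO. Those values did not overlap, and the percentiles, 44.3 ± 10.7 and 37.4 ± 12.3 (SD, n = 3; limma adjusted p on ranks = 0.836), did. Shared region chr9:32619505-32645000 was broad (25496 bp) and low, at 17, 15 and 14 steps in WT against 17, 14 and 10 in Cgas_KO.

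Satb1 encodes a chromatin organiser that sets up enhancers in precursors of regulatory T cells. Its window, chr17:51950000-52300000, was covered by 7.39%, 6.53% and 3.60% in WT and 11.2%, 9.68% and 6.05% in Cgas_KO (exact permutation p = 0.3). Cgas_KO replicate 3 fell among the WT values, and the other Cgas_KO libraries were above them. The shared region, chr17:52209986-52223558, was 9, 13 and 15 steps in WT against 12, 15 and 10 in Cgas_KO (limma adjusted p on ranks = 0.804). Its positions of highest signal lay up to 8234 bp apart, so these heights need not be of the same site. Recurrent region chr17:52136357-52144485 was in 1 WT and 3 Cgas_KO lists at 10 to 16 steps, and chr17:52184884-52189450 in 2 and 3.

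Tox encodes an HMG-box protein required for CD4 lineage cells in the thymus. Its window, chr4:6550000-7100000, was covered by 5.38%, 4.70% and 4.67% in WT and 3.61%, 5.74% and 6.16% in Cgas_KO, with overlap (exact permutation p = 0.9). It had the largest share of regions called in 1 list, 27 of 35, among these windows. Region chr4:6900558-6904809 was called in all but Cgas_KO replicate 1, at 19, 23 and 23 steps in WT against 13 and 8 in Cgas_KO. Region chr4:6988752-6992959 was called in all but Cgas_KO replicate 2, at 19, 17 and 25 steps in WT against 20 and 12 in Cgas_KO.

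Bach2 encodes a bZIP repressor that restrains effector genes and sustains regulatory T cells. Its window, chr4:32100000-32650000, was covered by 6.90%, 12.4% and 11.1% in WT and 10.5%, 9.89% and 7.67% in Cgas_KO (exact permutation p = 0.7). The groups overlapped. It had 9 recurrent regions among 40, the most of any of these windows by count, while the shorter Tcf7 window had 8 among 13. Shared region chr4:32238849-32254396 was 27, 17 and 30 steps in WT against 19, 18 and 11 in Cgas_KO, with overlap (limma adjusted p on ranks = 0.675). Its positions of highest signal lay up to 11545 bp apart, so these heights need not be of the same site. The other shared region, chr4:32557481-32563514, was 15, 11 and 19 steps in WT against 15, 13 and 11 in Cgas_KO. Just above it, chr4:32569633-32574179 was in 3 WT lists at 19, 16 and 18 steps and in Cgas_KO replicate 2 alone at 16. The reverse held at chr4:32419236-32428398, called in all Cgas_KO lists at 14, 10 and 8 steps and in WT replicate 2 alone at 12.

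**Figure D3:**
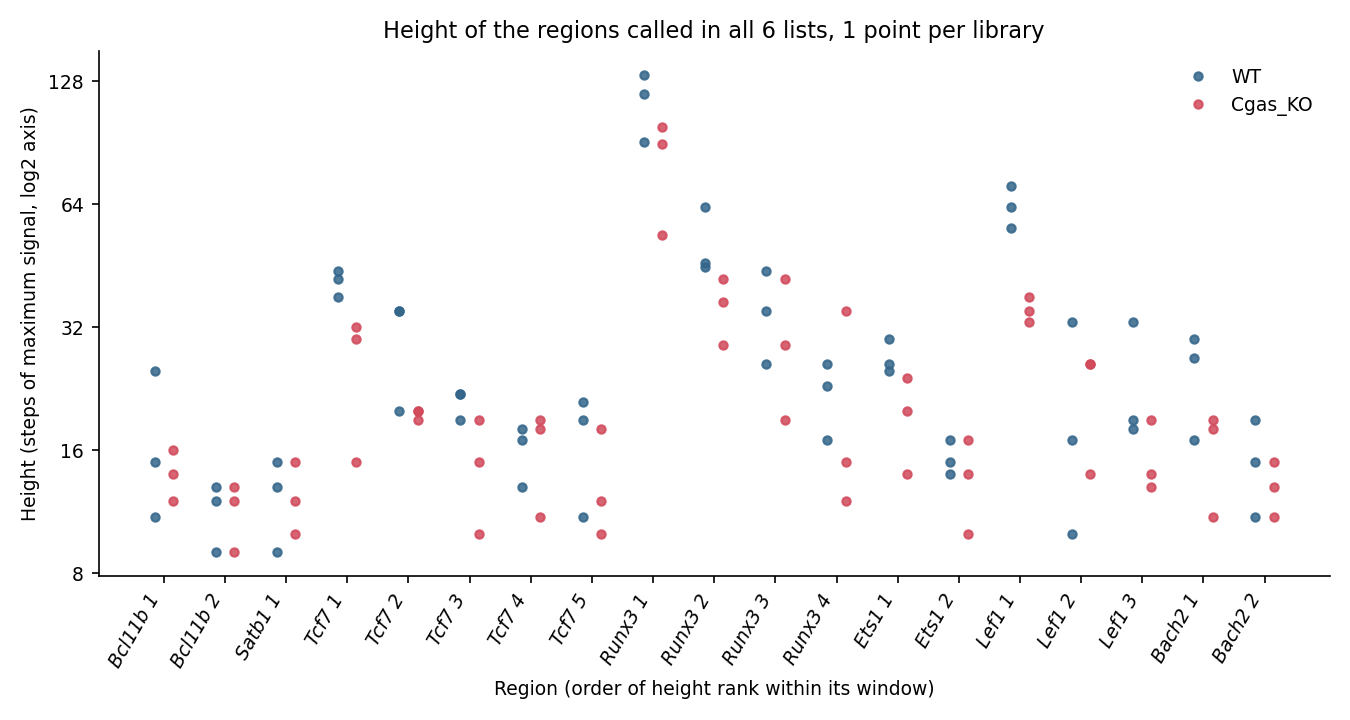
Height in steps (log2 axis) of the 19 regions called in all 6 lists, 1 point per library, blue for WT and red for Cgas_KO. The first Runx3 region is the tallest at 54 to 133 steps. The groups are apart only for Tcf7 1, Runx3 2, Ets1 1 and Lef1 1, all with the WT points higher in steps. Over the genome WT was likewise higher in 34.4% of the 4896 shared regions, and the reverse was seen in 30 of them.

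Whether shared regions differed in relative height was tested with limma on normal scores of the rank of height, over the 4896 shared regions of the genome. None of the 19 in the windows passed a Benjamini-Hochberg adjusted p of 0.05 in this limma test, where 0% of all shared regions did, and the lowest adjusted p in the windows was 0.647. At an unadjusted p under 0.05 there were 0 higher and 0 lower among the 19. Genome-wide 5.58% were higher and 3.84% lower in Cgas_KO at that threshold. Of the 19, 11 had a higher and 8 a lower score in Cgas_KO. The median difference was 0.05 in score, against -0.01 over all shared regions. On the log2 scale it was 0.05 against -0.04, with 0 of the 19 at an unadjusted p under 0.05 in limma. Over all shared regions 6.94% were higher and 11.4% lower in Cgas_KO at that threshold on this scale, and 1 region, outside the windows, passed the adjusted one. At Bcl11b chr12:107089073-107096466 and Bach2 chr4:32557481-32563514 the mean percentile and the mean score differed in sign.

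Sites also differed in how sharply the signal was placed, a measure that no test compared. The midpoint of the interval of maximum signal was taken in each library, and the spread is the distance between the outermost of the 6. It was within 500 bp in 5 of the 19 shared regions of the windows (26.3%) and in 42.7% of the 4877 elsewhere, with medians of 3084 and 694 bp. All 5 lay at Runx3 or Lef1. The spread was 103 bp at the tallest Runx3 site, around position 134794372, then 125 bp at chr4:134876567-134887553 and 276 bp at chr4:134928737-134936422. At Lef1 it was 340 bp at the tallest site, around position 131039733, and 243 bp at the site beside it. The widest spreads were in long low regions, 18053 bp at Ets1 chr9:32619505-32645000 and 16574 bp at Tcf7 chr11:52153938-52180692. Shared regions of the windows had a median width of 10080 bp, against 7329 bp elsewhere, and a wider region leaves more room for the positions to differ. They were also lower, at a median height percentile of 29.2 against 47.2 over all shared regions.

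**Figure D4:**
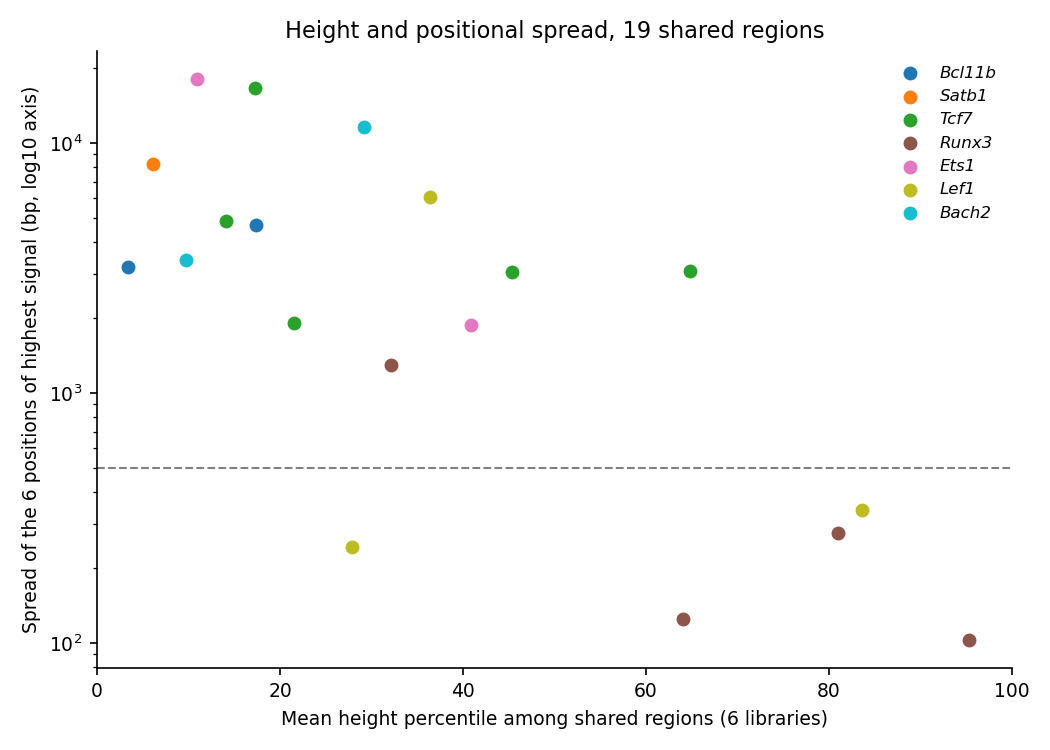
Distance between the outermost of the 6 positions of highest signal (bp, log10 axis) against the mean height percentile among shared regions, 1 point per shared region, coloured by window. The dashed line is at 500 bp, and the 5 points under it belong to Runx3 and Lef1.

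Local differences were looked for in bins of 50 kb, whose limits coincide with those of the windows. The windows held 96 bins, 93 of them with a peak. In 5 bins all Cgas_KO libraries were above all WT libraries and in 5 all were below, together 10.8% of the 93. Over the genome 2.31% of 43010 bins with a peak were above and 2.69% below. These windows were more densely covered than the genome, so the bins compared were not alike in coverage. Whether that changed the share was not tested. In whole tiles of 200 kb or longer, given above, the background was 9.73% to 11.9%, but a tile is longer than a bin. Tox had 4 of the 10 bins, 2 in each direction. Ets1 had 1 in each direction, Bcl11b and Runx3 1 each higher and Bach2 and Satb1 1 each lower in Cgas_KO. Tcf7, Gata3, Runx1 and Lef1 had 0.

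Among the 10 bins whose groups did not overlap, the largest difference was at Ets1, chr9:32500001-32550000, covered by 9.58%, 7.18% and 10.2% in WT and 12.8%, 35.9% and 15.6% in Cgas_KO. Cgas_KO replicate 2 alone was far above the rest. A pair of neighbouring Tox bins went opposite ways. In chr4:6850001-6900000 no WT list had a peak, and the Cgas_KO lists covered 6.71%, 16.2% and 9.02%, with 5 peaks of 7 to 12 steps, 3 of which overlapped no peak of another list. In chr4:6900001-6950000 coverage was 15.2%, 19.1% and 13.0% in WT and 0%, 4.77% and 10.4% in Cgas_KO. This bin holds region chr4:6900558-6904809, which the WT lists called at 19 to 23 steps. With 3 libraries against 3 the exact permutation p of such a bin is 0.1, the smallest possible. With every list cut to the length of the shortest, 3 bins of the windows were higher in Cgas_KO instead of 5, and 5 were still lower. The genome shares above are of the full lists.

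**Figure D5:**
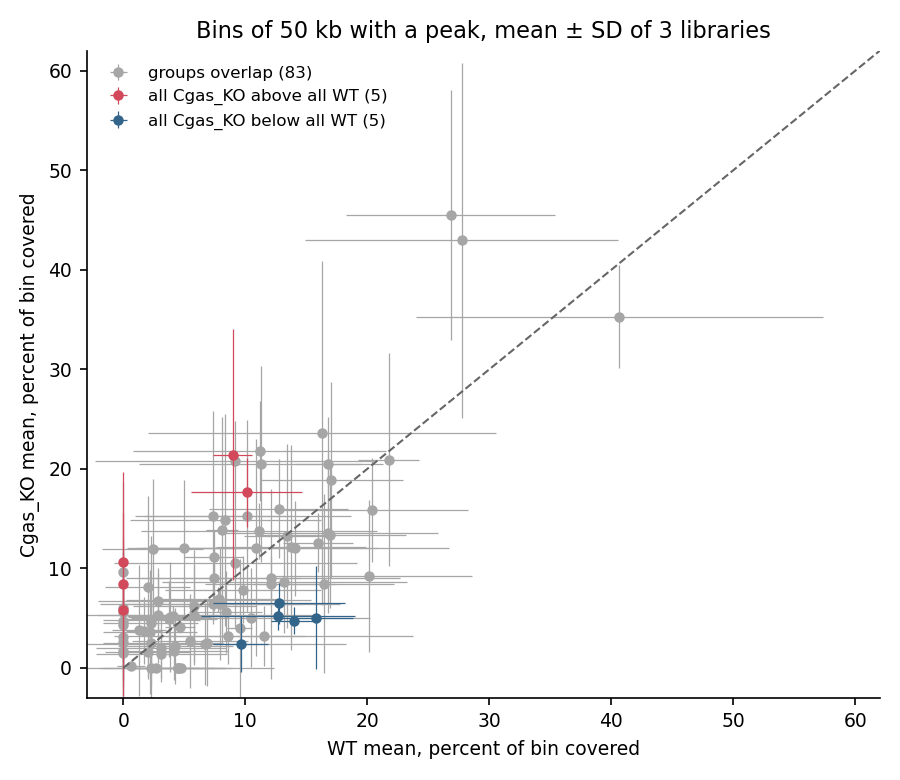
Percent of each 50 kb bin covered by peaks, mean ± SD of the 3 WT libraries (x axis) and the 3 Cgas_KO libraries (y axis), for the 93 bins with a peak. Red and blue points are the 5 and 5 bins whose groups do not overlap, and 83 grey points are bins whose groups do.

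Regions called in fewer than 6 lists were counted by genotype. Of the 15 regions called in 5 lists, 6 lacked a Cgas_KO list and 9 lacked a WT list, while over the genome 62.7% of the 2817 such regions lacked a Cgas_KO list. Among the 13 regions called in 4 lists, 2 were mostly WT, 2 mostly Cgas_KO and 9 equal. Over the genome 28.5% of the 3299 such regions were mostly WT and 18.8% mostly Cgas_KO. Among the 35 regions called in 3 lists, 21 were mostly WT and 14 mostly Cgas_KO, against 51.8% and 48.2% of the 5132 over the genome. Of the 44 called in 2 lists, 5 were of WT alone and 12 of Cgas_KO alone, against 20.2% and 22.4% over the genome. Of the 177 called in 1 list, 75 came from WT and 102 from Cgas_KO, against 45.5% and 54.5% over the genome. Cgas_KO replicate 3 gave the most of these, 42, and the other libraries 23 to 33.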

How the data were processed

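Each of the 6 libraries (3 WT, 3 Cgas_KO) has 1 peak list, deposited by the authors, with the total and the maximum of the signal in every peak. The submitters' processing notes list Bowtie2, a read aligner, and SEACR 1.3, a CUT&RUN peak caller. The sources used here do not state threshold, control library or scaling. The notes name mm10 and mm39, and the sequence names in the lists belong to mm39.

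Only peaks on the autosomes, X and Y were kept. Coverage, merging at 1 bp, ranks and the two-sided exact permutation tests over 20 assignments used Python 3.11.15 with numpy 2.4.6, pandas 2.3.3 and matplotlib 3.10.9. limma 3.58.1 (R 4.3.3) was fitted over all shared regions of the genome with Benjamini-Hochberg adjustment at 0.05. Merging, coverage and limma were tested on simulated data. The members and lists were chosen with earlier results of these data known. Regions named are up to 2 shared ones per window with the highest mean rank, all regions of 1 genotype, and the 3 bins with the largest separated difference. No shared region in the windows met the rule's unadjusted p under 0.05. Others were named after their values were seen. The wider list of T lineage regulators and the motif share of peaks, planned for an annotation or genome of mm39, were not run. Alternatives were shorter lists, other overlaps and scales, dropping each library in turn, and a replicate block.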

Additional observations from a re-analysis of the deposited data

How the results depend on the processing

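No window passed a threshold under any setting, since 3 libraries against 3 stop at an exact permutation p of 0.1, and depth is unknown. Differences in coverage (Cgas_KO minus WT, percentage points) turned sign for Bcl11b (-0.101), Tox (-0.0237) and Lef1 (-0.131) with lists cut to the length of the shortest, and for Tox (-0.747) and Bach2 (1.09) in the top 50% of each list. With a library left out they ran from -0.0827 to 1.69 at Bcl11b, -1.45 to 4.29 at Tcf7, -0.661 to 6.49 at Ets1, -0.245 to 1.03 at Tox, -0.394 to 0.525 at Lef1 and -2.40 to 0.337 at Bach2. The sign turned without Cgas_KO replicate 2 (Bcl11b, Tcf7, Ets1, Tox, Lef1), Cgas_KO replicate 3 (Tox, Bach2) or WT replicate 2 (Lef1, Bach2). Differences kept their sign under all of these settings at Satb1 (2.01 to 4.59 with a library left out), Gata3 (0.449 to 3.86), Runx1 (0.0911 to 1.97) and Runx3 (-4.79 to -0.188). The exact permutation p, unadjusted, reached 0.1 at Lef1 in the top 50% of each list (difference 1.43). It also did so without WT replicate 3 at Runx3 (-4.79) and without Cgas_KO replicate 3 at Bcl11b (1.69) and Satb1 (4.59). The excess of peaks in Cgas_KO, 15 per library, was 6 with shortened lists and ran from 11 to 20.5 when each library was dropped in turn. Regions of WT alone came to 6 where 2 of 3 lists sufficed, 0 by intervals of maximum signal and 2 in the top 50%. Regions of Cgas_KO alone came to 2 at 50% coverage and 13 where 2 of 3 lists sufficed. Dropping a library, which asks for fewer lists, gave 1 to 5 for WT and 1 to 8 for Cgas_KO. Shared regions of the windows numbered 0 at 50% coverage and 11 in the top 50%, with no genome share given for these settings. Bins higher in Cgas_KO numbered 3 in shortened lists, 2 in the top 50% and 7 to 11 with a library left out. Bins lower in Cgas_KO numbered 5, 4 and 5 to 11 in these settings. With a library left out fewer values have to separate, so more bins are counted by construction. The genome shares of bins given above are of the full lists only. The difference in normal score of height (Cgas_KO minus WT) turned sign by total signal at Bach2 chr4:32238849 (0.62), Tcf7 chr11:52109193 (0.015) and chr11:52220014 (0.23), Runx3 chr4:134792255 (-0.26) and Bcl11b chr12:107147012 (-0.89), and on the log2 scale at Runx3 chr4:134792255 (-0.13) and chr4:134928737 (-0.12). With a library left out it ran from -0.22 to 0.33 at Bach2 chr4:32557481, -0.18 to 0.17 at Ets1 chr9:32619505, -0.42 to 0.60 at Bcl11b chr12:107089073, -0.023 to 0.49 at Bcl11b chr12:107147012 and -0.079 to 0.63 at Satb1. Limma called 0 of the regions under each setting that left any to test (50% coverage left 0), with 2 at an unadjusted p under 0.05 by total signal and 0 to 1 with a library left out. Except for the fewer lists named, the cause was not tested.

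Same-numbered libraries did not deviate together (correlations of -0.013, -0.017 and -0.015), so the numbers were not taken as pairs. With a replicate block limma called 0, and the differences of 3.13 at Satb1 and 2.02 at Gata3 had an exact sign-flip p of 0.25, the smallest possible. At the other windows it was 0.5 to 1. Alternatives for the number of shared regions and for signal positions were added after seeing the data.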
